A study of Homo sapiens with 4 samples.

Results

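The tetraspanin family was followed in the triple-negative breast cancer cell line MDA-MB-468, with 2 libraries of the drug-resistant subline MDA-MB-468/R and 2 libraries of the parental line MDA-MB-468/WT. Members were chosen by symbol, as the rows named TSPAN followed by a number and the rows CD9, CD37, CD53, CD63, CD81, CD82 and CD151, which gave 29 of the 20809 targets in the files. MDA-MB-468 is an established human line of basal-like breast carcinoma that carries many copies of EGFR. MDA-MB-468/R was derived with adriamycin (doxorubicin), cytoxan (cyclophosphamide) and taxotere (docetaxel), given at growing doses over 6 months and followed by 1 month of recovery, and MDA-MB-468/WT is labelled as untreated. The labels give the same drugs in a protocol field of the MDA-MB-468/WT libraries, and their treatment and genotype fields were used. Each group is a single line, and the sources do not say whether its 2 libraries came from separate cultures, so each p-value reflects library-to-library spread that may be technical.

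Tetraspanins are small proteins that cross the membrane several times and carry a large outer loop with a conserved CCG motif. They gather integrins, immunoglobulin-domain proteins, membrane proteases and each other into patches of the membrane called the tetraspanin web, and through these partners act in adhesion, shedding of surface proteins and sorting of cargo into vesicles. CD9, CD63 and CD81 are the usual surface markers of extracellular vesicles (EVs), and in the study itself CD63 protein was stained to show captured EVs.

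RNA was read with the Ion AmpliSeq Transcriptome kit, which amplifies a single short piece of each targeted gene. The deposited values are log2 of RPM (a gene's reads, scaled to the same total of target reads in every library) plus 1. The steps between the lowest values gave 6991000 and 7328000 reads in MDA-MB-468/R, against 6833000 and 7982000 reads in MDA-MB-468/WT, so that 3 reads, the limit that a count of 0 allows, correspond to between 0.376 and 0.439 RPM. Such limits, and the counting interval given for L1CAM, cover counting error only. In bulk RNA of this kind fewer cells with a transcript and less of it per cell cannot be told apart. Because a gene is read from a single amplicon, its length does not enter the value, but amplicons differ in yield and an order of genes by RPM is therefore approximate. The breast epithelium markers EPCAM, KRT8, KRT18, KRT19, KRT7, EGFR and KRT5 stood at 587 RPM or more in every library. CDH1 had 93.4 and 78.3 RPM in MDA-MB-468/R, against 105 and 98.0 RPM in MDA-MB-468/WT. The 8 epithelial markers had a median log2 fold change of -0.1975. Of these only KRT5 had an adjusted p of at most 0.05 from limma, and it was lower in MDA-MB-468/R (684 and 665 RPM, against 1120 and 1175 RPM). Of the 10 leukocyte markers 6 had no read in any library, among them PTPRC and CD3E, and CD14 held most of that list's summed level (74.5 and 74.3 RPM in MDA-MB-468/R, against 88.9 and 90.3 RPM in MDA-MB-468/WT). Summed levels of fibroblast and endothelial markers were at most 18.1 and 9.75 RPM, and the red cell markers at most 0.809 RPM, in any library. Of these only 1 fibroblast and 2 endothelial markers reached the test, and the endothelial pair, CDH5 and KDR, was lower in MDA-MB-468/R. Both rest on few reads. CDH5 was read 0 and 1 times in MDA-MB-468/R, against 18 and 22 times in MDA-MB-468/WT. KDR was read 21 and 22 times, against 39 and 53 times. The part of all these cell type markers in the differences of the tetraspanins was not tested. The 2 MDA-MB-468/R libraries differed from each other more than the 2 MDA-MB-468/WT libraries did (SD of the log2 difference over tested genes 0.355 and 0.210).

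Among the 29 tetraspanins, 19 reached 10 reads in 2 or more libraries and were tested. TSPAN1, TSPAN2 and TSPAN6 were lower in MDA-MB-468/R and TSPAN13 was higher (adjusted p up to 0.05 from limma), each by less than 2.5-fold, the study's threshold for a differentially expressed gene (DEG), and 15 members did not pass. The 3 lower members are 15.8% of those tested, where 10.6% of all 12118 tested genes were lower, and the 1 higher member is 5.26%, where 5.36% were higher, so that neither share lies far from its background. No tetraspanin was an upregulated or a downregulated DEG under limma (0.809% and 2.45% of all tested genes were, together 3.26%), and 5 members had an unadjusted p of at most 0.05. The median log2 fold change of the tested members was -0.055 beside -0.03 for all tested genes, and the median absolute change was 0.265 beside 0.240. Each of the 19 intervals of the fold change (95%, limma) lay inside 2.5-fold in both directions, and 17 lay inside 2-fold. The libraries of the groups did not overlap for 12 of 19 members, 4 with MDA-MB-468/R above and 8 with it below, where 26.1% and 32.2% of all tested genes, together 58.3%, did so.

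**Figure D1:**
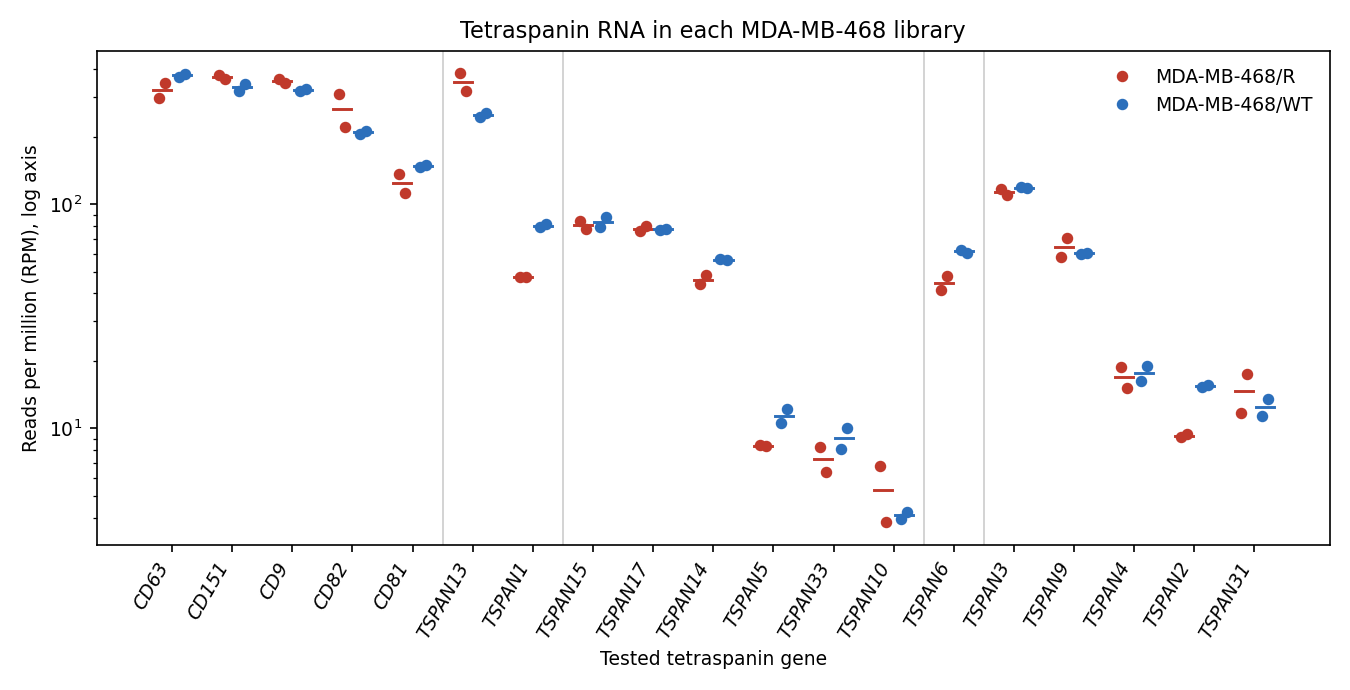
RPM on a log axis (y) for the 19 tested tetraspanins (x), with MDA-MB-468/R in red to the left of MDA-MB-468/WT in blue. Each point is a library and each bar the mean of 2 libraries, vertical lines separate the groups of genes, and the widest gaps between red and blue are those of TSPAN1 (47.3 and 80.3 RPM) and TSPAN2 (9.27 and 15.5 RPM).

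**Figure D2:**
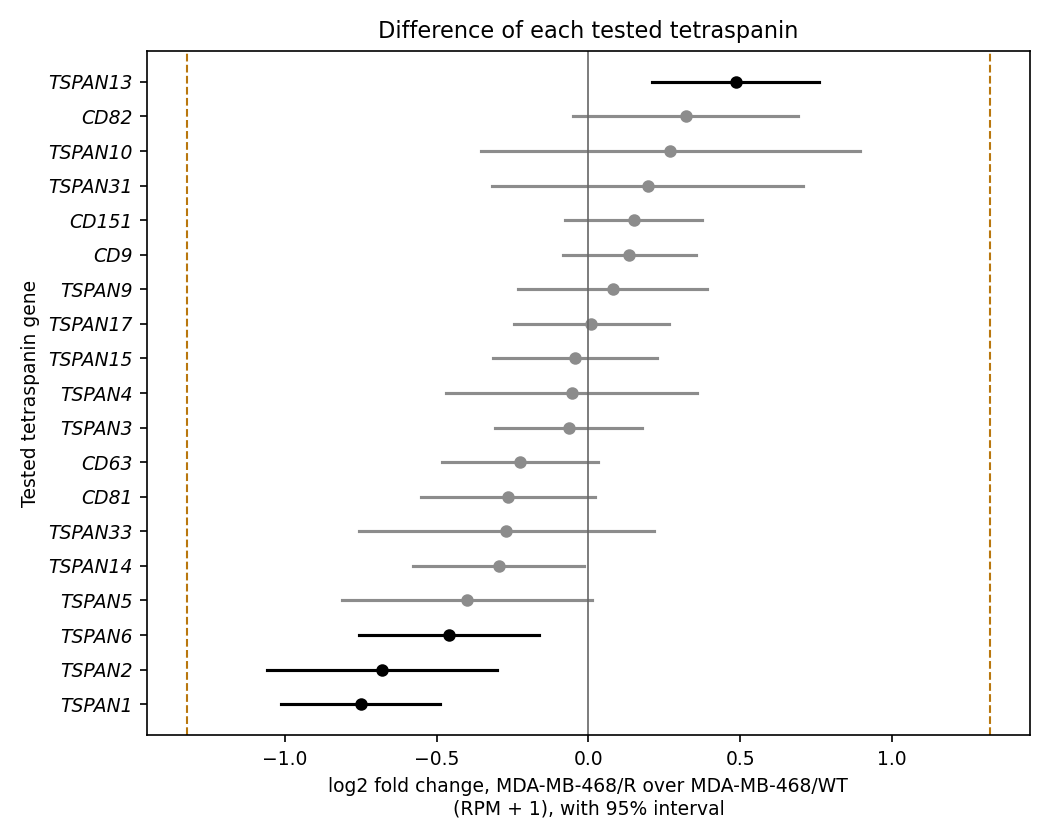
Log2 fold change of MDA-MB-468/R over MDA-MB-468/WT (x) with its 95% interval from limma for each tested tetraspanin (y), in black where the adjusted p was at most 0.05 and in grey elsewhere. Dashed lines mark the 2.5-fold threshold, which none of the 19 intervals reached, and the points run from -0.75 for TSPAN1 to 0.485 for TSPAN13.

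The start regions of the 4 members that passed, 3 lower and 1 higher, are shown as a description. RefSeq (GRCh38.p14) holds 5 windows for them, each from 250 bases before to 50 bases after an annotated start, printed in the direction of the gene. Capitals mark matches on either strand to any of the motifs searched, and overlapping matches were each counted. The GC box was searched as GGGCGG. The CCAAT box was searched by its name's letters. The TATA box was searched as TATAAA. The AP-1 site was searched as TGANTCA. The windows are chr1:46174837-46175136, plus strand for TSPAN1, chr1:115089454-115089753, minus strand for TSPAN2, chrX:100637055-100637354, minus strand and chrX:100636757-100637056, minus strand for TSPAN6 with its 2 annotated starts, and chr7:16753505-16753804, plus strand for TSPAN13.
TSPAN1: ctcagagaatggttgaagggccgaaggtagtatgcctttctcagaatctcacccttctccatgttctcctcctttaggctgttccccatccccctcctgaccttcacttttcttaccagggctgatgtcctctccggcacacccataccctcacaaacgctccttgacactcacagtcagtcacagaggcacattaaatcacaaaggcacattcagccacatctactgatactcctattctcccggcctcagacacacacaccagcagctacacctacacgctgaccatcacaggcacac
TSPAN2: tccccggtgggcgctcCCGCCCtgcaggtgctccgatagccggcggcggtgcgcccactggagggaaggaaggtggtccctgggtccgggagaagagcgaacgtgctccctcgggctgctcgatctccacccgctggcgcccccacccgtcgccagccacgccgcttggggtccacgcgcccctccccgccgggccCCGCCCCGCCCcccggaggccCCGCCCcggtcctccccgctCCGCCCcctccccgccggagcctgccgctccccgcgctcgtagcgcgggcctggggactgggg
TSPAN6, first window: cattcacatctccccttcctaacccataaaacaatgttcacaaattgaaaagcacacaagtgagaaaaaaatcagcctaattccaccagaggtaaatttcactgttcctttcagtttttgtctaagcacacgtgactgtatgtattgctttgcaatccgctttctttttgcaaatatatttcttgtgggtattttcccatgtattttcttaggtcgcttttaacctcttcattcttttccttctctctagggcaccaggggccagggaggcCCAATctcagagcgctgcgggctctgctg
TSPAN6, second window: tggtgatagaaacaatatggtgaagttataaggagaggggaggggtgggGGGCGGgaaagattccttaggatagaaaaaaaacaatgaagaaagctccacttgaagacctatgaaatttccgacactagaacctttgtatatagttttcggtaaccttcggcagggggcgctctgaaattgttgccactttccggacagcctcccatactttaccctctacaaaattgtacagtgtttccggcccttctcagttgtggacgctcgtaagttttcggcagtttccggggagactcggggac
TSPAN13: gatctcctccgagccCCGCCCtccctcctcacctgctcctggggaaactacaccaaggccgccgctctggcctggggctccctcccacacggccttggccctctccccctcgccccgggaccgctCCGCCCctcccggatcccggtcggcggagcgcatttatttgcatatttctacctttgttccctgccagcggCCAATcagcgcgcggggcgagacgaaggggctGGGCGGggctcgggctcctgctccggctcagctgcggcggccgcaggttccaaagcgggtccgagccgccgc
No searched motif was common to the 3 genes that were lower. TSPAN2 holds 5 GC boxes in a window of 79.7% G and C, TSPAN1 holds none of the motifs, and the TSPAN6 windows hold 1 CCAAT and 1 GC box. TSPAN13 holds 3 GC boxes and 1 CCAAT. Of all 35116 windows, 45.0% hold a GC box, 34.6% a CCAAT, 11.5% a TATA box and 7.71% an AP-1 match. Of the 12575 windows of tested genes, 66.5% hold a GC box, 35.2% a CCAAT, 6.27% a TATA box and 5.23% an AP-1 match. Of the 15 tested members with a window, 12 hold a GC box, 7 a CCAAT, 2 an AP-1 match and none a TATA box. A member counts here if any of its windows holds the motif, while the shares above are of single windows. The counts and shares are therefore unlike measures, and no share per gene was computed. All of these motif hits are matches of letters and were not tested as binding sites.

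TSPAN1 had the largest decrease of the family. It encodes a surface tetraspanin of epithelial cells that is often abundant in carcinomas. It had 47.5 and 47.2 RPM in MDA-MB-468/R, against 78.9 and 81.7 RPM in MDA-MB-468/WT. The replicates lay close together and the groups were far apart. Its log2 fold change was -0.75 (95% interval -1.01 to -0.49, adjusted p = 0.00533 from limma). Without WT replicate 1 or WT replicate 2 the change stayed at -0.775 and -0.725 but the adjusted p was 0.199 and 0.214. The RefSeq span of TSPAN1 overlaps that of POMGNT1, a glycosyltransferase gene, which had 53.6 and 27.8 RPM in MDA-MB-468/R, against 68.1 RPM in each MDA-MB-468/WT library (log2 fold change -0.80, adjusted p = 0.0851). The study's methods describe strand-specific libraries, the position of the amplicons is not given in the sources used here, and whether the overlapping genes share reads was not tested.

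TSPAN2, best known from myelinating glia, was lower at a much smaller level. It had 9.13 and 9.41 RPM (64 and 69 reads) in MDA-MB-468/R, against 15.3 and 15.6 RPM (105 and 124 reads) in MDA-MB-468/WT. Both MDA-MB-468/R libraries lay below both MDA-MB-468/WT libraries. In limma this was a log2 fold change of -0.68, with a 95% interval of -1.06 to -0.30 and an adjusted p of 0.0298. The adjusted p was 0.0515 without R replicate 1, 0.34 without WT replicate 1 and 0.346 without WT replicate 2.

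TSPAN6 and TSPAN7 are the members on chromosome X. TSPAN6, which has been linked to sorting in late endosomes, had 41.5 and 47.8 RPM in MDA-MB-468/R, against 62.6 and 60.8 RPM in MDA-MB-468/WT. The groups did not overlap, and the MDA-MB-468/R libraries were the more spread. In limma this was a log2 fold change of -0.46, with a 95% interval of -0.76 to -0.16 and an adjusted p of 0.0482. It no longer passed without R replicate 1 (adjusted p = 0.0552), WT replicate 1 (0.468) or WT replicate 2 (0.413), nor with median-of-ratios scaling (0.0645). Of the 379 other tested genes on chromosome X, 138 were lower (36.4%, against 10.6% of all tested genes) and their median log2 fold change was -0.45, close to that of TSPAN6. The part of the chromosome in the change of TSPAN6 was not tested. TSPAN7, known from X-linked intellectual disability, had no read in any library.

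TSPAN13 was the member that was higher in MDA-MB-468/R. It is a tetraspanin of epithelial cells, also called NET-6, whose role is less well known. It had 384 and 319 RPM in MDA-MB-468/R, against 245 and 255 RPM in MDA-MB-468/WT, and was among the most abundant members in both groups. Both MDA-MB-468/R libraries were higher, although they differed from each other by 0.27 on the log2 scale. The log2 fold change was 0.485 (95% interval 0.211 to 0.759, adjusted p = 0.0311 from limma), and the adjusted p was 0.42 without WT replicate 1, 0.357 without WT replicate 2 and 0.0949 without a mean trend. TSPAN8, a tetraspanin known from carcinomas of the digestive tract, had no read in any library.

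The neighbours of TSPAN1, TSPAN6 and TSPAN13 were read from the order of RefSeq genes, taking the 5 nearest tested genes on each side. The nearest tested gene on one side of TSPAN13, on chromosome 7, was AGR2, a disulfide isomerase gene of secretory cells, which had 122 and 120.1 RPM in MDA-MB-468/R, against 24.1 and 26.7 RPM in MDA-MB-468/WT (log2 fold change 2.21, adjusted p = 8.41e-05 from limma). On its other side BZW2 had a log2 fold change of 0.005, and the median of the 10 neighbours of TSPAN13 was 0.025, with 3 higher and 2 lower. Of the other tested genes of chromosome 7, 4.26% were higher and 9.57% lower, with a median of -0.0575. By gene midpoint, the other higher genes ETV1 and SOSTDC1 lie at -2828 and -306 kb from TSPAN13, with minus for lower positions. The lower genes ISPD and HDAC9 lie at -515 and 1775 kb. The 10 neighbours of TSPAN1 had a median of 0.115 with 1 lower (LRRC41). The other tested genes of chromosome 1 had a median of -0.12, and 15.3% of them were lower. Around TSPAN6 the median was -0.57 with 4 lower, among them SRPX2, its nearest tested neighbour on one side (5.28 and 5.59 RPM in MDA-MB-468/R, against 30.8 and 33.3 RPM in MDA-MB-468/WT) and the vesicle docking gene SYTL4 (log2 fold change -1.20). SRPX2 and SYTL4 lie at 27.9 and 71.2 kb from TSPAN6 by gene midpoint. The other lower neighbours, RPA4 and APOOL, lie far off, at -3747 and -15583.5 kb. Of the other tested genes of chromosome X, 36.4% were lower. Without WT replicate 1 or WT replicate 2 the adjusted p was 0.0391 and 0.0378 for AGR2, 0.0529 and 0.0559 for SRPX2, and 0.178 and 0.188 for SYTL4.

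**Figure D3:**
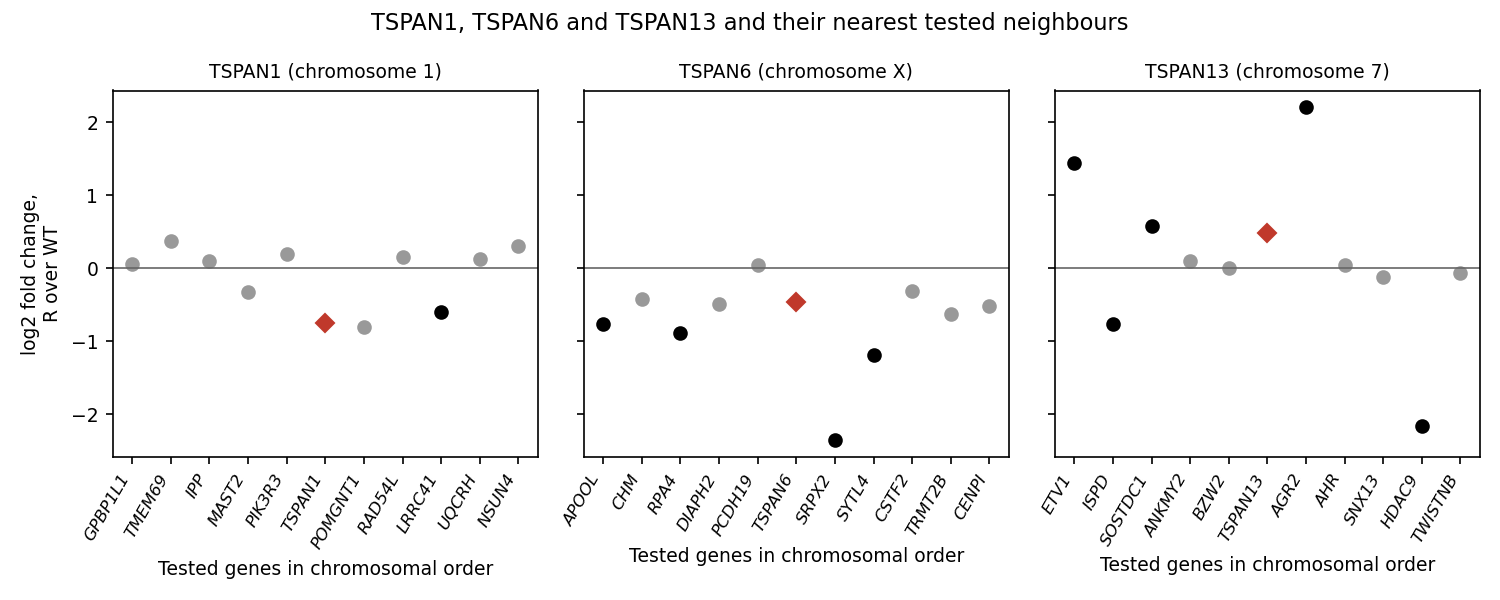
Log2 fold change of MDA-MB-468/R over MDA-MB-468/WT (y) of TSPAN1, TSPAN6 and TSPAN13 (red diamonds) and of the 5 nearest tested genes on each side (circles, black where the adjusted p was at most 0.05), in chromosomal order (x, not to scale). The neighbours of TSPAN6 have a median of -0.57, and AGR2 next to TSPAN13 stands at 2.21.

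The vesicle and surface tetraspanins CD9, CD63, CD81, CD82 and CD151 did not pass the test, and their summed level was 1481 and 1388 RPM in MDA-MB-468/R, against 1363 and 1414 RPM in MDA-MB-468/WT. CD9, a partner of integrins and of EWI proteins, had 361 and 346 RPM in MDA-MB-468/R, against 319 and 325 RPM in MDA-MB-468/WT. Both MDA-MB-468/R libraries were slightly above, with a log2 fold change of 0.135 (95% interval -0.084 to 0.354, adjusted p = 0.372 from limma). CD151, which binds the laminin-binding integrins, had 376 and 361 RPM in MDA-MB-468/R, against 321 and 344 RPM in MDA-MB-468/WT. It also lay slightly above, with a log2 fold change of 0.15 (95% interval -0.076 to 0.376, adjusted p = 0.336).

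CD63, the tetraspanin of late endosomes and lysosomes, had 297 and 349 RPM in MDA-MB-468/R, against 371 and 382 RPM in MDA-MB-468/WT. Both MDA-MB-468/R libraries lay below, with a log2 fold change of -0.225 (95% interval -0.482 to 0.032, adjusted p = 0.211 from limma). CD81, a receptor of hepatitis C virus, had 136 and 112 RPM in MDA-MB-468/R, against 147 and 150.2 RPM in MDA-MB-468/WT. It was likewise lower in both MDA-MB-468/R libraries, with a log2 fold change of -0.265 (95% interval -0.553 to 0.023, adjusted p = 0.191). CD82, known as the metastasis suppressor KAI1, had 309.8 and 220.3 RPM in MDA-MB-468/R, against 205.5 and 213 RPM in MDA-MB-468/WT. The 2 MDA-MB-468/R libraries were 0.49 apart on the log2 scale, and R replicate 1 set the size of the difference of 0.32 (95% interval -0.051 to 0.691, adjusted p = 0.218). Without R replicate 1 it was 0.075, and without R replicate 2 it was 0.565 with an adjusted p of 0.0304. CD63 passed without R replicate 2 (-0.34, adjusted p = 0.0379), and CD81 without R replicate 1 (-0.405, adjusted p = 0.0371). For these 5 genes the intervals leave out a 2-fold change in either direction and leave smaller changes undecided.

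The TspanC8 group, TSPAN5, TSPAN10, TSPAN14, TSPAN15, TSPAN17 and TSPAN33, binds the protease ADAM10 and brings it to the cell surface. None of its 6 members passed the test, with a median log2 fold change of -0.158 and a summed level of 227 and 225 RPM in MDA-MB-468/R, against 236 and 248 RPM in MDA-MB-468/WT. TSPAN15 had 84.0 and 77.8 RPM in MDA-MB-468/R, against 79.4 and 87.6 RPM in MDA-MB-468/WT, and TSPAN17 had 75.6 and 80.0 RPM, against 76.7 and 77.8 RPM. The groups overlapped for both genes. TSPAN14 had 43.9 and 48.2 RPM in MDA-MB-468/R, against 57.1 and 56.3 RPM in MDA-MB-468/WT, a log2 fold change of -0.295 (95% interval -0.577 to -0.013 from limma, with an adjusted p of 0.144). TSPAN5 had 8.45 and 8.32 RPM in MDA-MB-468/R, against 10.6 and 12.3 RPM in MDA-MB-468/WT (log2 fold change -0.40, adjusted p = 0.172). These 2 genes were lower in both MDA-MB-468/R libraries without passing. TSPAN33 had 8.25 and 6.41 RPM in MDA-MB-468/R, against 8.063 and 10.004 RPM in MDA-MB-468/WT, and the groups overlapped. TSPAN10, known from pigment cells, was read 48 and 28 times in MDA-MB-468/R, against 27 and 34 times in MDA-MB-468/WT, so that R replicate 1 alone stood apart and its log2 fold change of 0.27 was -0.08 without that library.

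The remaining tested members were TSPAN3, TSPAN4, TSPAN9 and TSPAN31, whose log2 fold changes lay between -0.065 and 0.195. TSPAN3 had 117 and 109.7 RPM in MDA-MB-468/R, against 119 and 118 RPM in MDA-MB-468/WT, with a 95% interval of -0.308 to 0.178. TSPAN9, a platelet tetraspanin, had 57.9 and 70.5 RPM in MDA-MB-468/R, against 59.97 and 60.82 RPM in MDA-MB-468/WT. TSPAN4, known from migrasomes, had 18.8 and 15.1 RPM, against 16.3 and 19.0 RPM. In TSPAN4, TSPAN9 and TSPAN31 the groups overlapped. TSPAN31, whose span overlaps CDK4 (log2 fold change 0.07), had 11.7 and 17.5 RPM in MDA-MB-468/R, against 11.4 and 13.5 RPM in MDA-MB-468/WT. The MDA-MB-468/R replicates were farther apart than the MDA-MB-468/WT replicates in 15 of the 19 members, with a median absolute log2 difference of 0.20 and 0.05.

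The other 10 tetraspanins were at or near 0. TSPAN7, TSPAN8, TSPAN11, TSPAN12, TSPAN18, TSPAN19 and TSPAN32 had 0 reads in all 4 libraries, which allows up to 0.429 and 0.409 RPM in MDA-MB-468/R, against 0.439 and 0.376 RPM in MDA-MB-468/WT. CD37, a tetraspanin of leukocytes, was read 3 and 1 times in MDA-MB-468/R, against 4 and 2 times in MDA-MB-468/WT. CD53, another leukocyte tetraspanin, had a single read, in WT replicate 1, and TSPAN16 had 1 read, in R replicate 2. These levels give no comparison between the groups. The tetraspanins with other symbols, UPK1A, UPK1B, PRPH2 and ROM1, were not tested either, and their summed level was 1.14 and 0.948 RPM in MDA-MB-468/R, against 1.62 and 1.13 RPM in MDA-MB-468/WT.

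Partners of the tetraspanin web were looked at next, as the proteins through which the family acts. Of 19 tested partner genes, 7 were lower (ITGB4, CD46, ICAM1, IGSF8, ITGA3, ITGB1 and CD44), 1 was higher (FZD4) and 11 did not pass, with a median log2 fold change of -0.295, and ITGB4 and CD46 were downregulated DEGs. Of all tested genes 10.6% were lower and 5.36% higher, with a median of -0.03. The integrin subunit gene ITGB4 had 46.5 and 37.1 RPM in MDA-MB-468/R, against 140.0 and 132 RPM in MDA-MB-468/WT (log2 fold change -1.69, adjusted p = 4.13e-04 from limma). ITGB1 had 94.7 and 91.4 RPM in MDA-MB-468/R, against 169 and 157 RPM in MDA-MB-468/WT, and ITGA3 had 58.7 and 41.8 RPM, against 87.6 and 86.4 RPM. Both had a log2 fold change of -0.80, with adjusted p of 0.0031 and 0.0182. ITGA6, another integrin subunit gene of the list, had a log2 fold change of -0.19 and did not pass (adjusted p = 0.326).

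IGSF8, the immunoglobulin protein EWI-2 that binds CD9 and CD81 directly, had 11.0 and 9.93 RPM in MDA-MB-468/R, against 19.4 and 18.4 RPM in MDA-MB-468/WT (log2 fold change -0.80, adjusted p = 0.0161 from limma). Its relative PTGFRN had 53.2 and 39.2 RPM, against 67.1 and 66.6 RPM, and did not pass (-0.54, adjusted p = 0.0611). The adhesion gene ICAM1 had 68.6 and 64.8 RPM in MDA-MB-468/R, against 137 and 141 RPM in MDA-MB-468/WT. The complement regulator CD46 had 2.86 and 0.815 RPM in MDA-MB-468/R, against 5.41 and 7.17 RPM in MDA-MB-468/WT. Its call rests on few reads, 20 and 6 in MDA-MB-468/R, against 37 and 57 in MDA-MB-468/WT. FZD4, the Frizzled receptor that TSPAN12 assists, had 5.28 and 6.26 RPM in MDA-MB-468/R, against 2.78 and 2.39 RPM in MDA-MB-468/WT, whereas TSPAN12 itself had no read. EPCAM, CLDN7 and EGFR, which also belong to the web, had log2 fold changes of -0.095, -0.16 and -0.135 and did not pass. Counts of lower partners were 10 without R replicate 1 and 7 without R replicate 2, and none were lower without WT replicate 1 or WT replicate 2. The adjusted p of ITGB4 was 0.069 and 0.0659 in those fits. With any 1 library left out FZD4 and CD44 no longer passed, and CD46 passed only without R replicate 1.

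ADAM10 itself had 88.9 and 97.4 RPM in MDA-MB-468/R, against 96.7 and 88.3 RPM in MDA-MB-468/WT, with a log2 fold change of 0.01 (95% interval -0.258 to 0.278). The related sheddase ADAM17 had a log2 fold change of 0.075. Of 16 tested genes in the list of ADAM10, ADAM17 and proteins they shed, 3 were lower and 13 did not pass, with a median of -0.243, where 10.6% of all tested genes were lower. The lower members were the adhesion gene L1CAM, the EGFR ligand gene AREG and the chemokine gene CXCL16. L1CAM and AREG were downregulated DEGs. AREG had 2.43 and 2.61 RPM in MDA-MB-468/R, against 9.63 RPM in each MDA-MB-468/WT library, and CXCL16 had 20.9 and 15.8 RPM, against 35.0 and 37.6 RPM. L1CAM, on chromosome X, had 3 reads over both MDA-MB-468/R libraries, against 327 over both MDA-MB-468/WT libraries, a ratio of 0.00949 (95% counting interval 0.00195 to 0.0280). Without WT replicate 1 or WT replicate 2 only L1CAM was still lower (adjusted p = 0.0269 and 0.0280).

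Of 23 tested vesicle formation genes, 2 were lower (SDCBP and LAMP2), 2 were higher (FLOT1 and SDC1) and 19 did not pass, with a median log2 fold change of -0.105. Of all tested genes 10.6% were lower and 5.36% higher, and the share of the list that passed lies near that background. SDCBP encodes syntenin-1, the adaptor that binds the tail of CD63 and the syndecans, and it was the only DEG of this list. It had 13.5 and 15.4 RPM in MDA-MB-468/R, against 43.9 and 43.0 RPM in MDA-MB-468/WT (log2 fold change -1.52, adjusted p = 7.30e-04 from limma). PDCD6IP, which encodes the syntenin partner ALIX, had 64.3 and 52.4 RPM in MDA-MB-468/R, against 55.5 and 53.6 RPM in MDA-MB-468/WT (log2 fold change 0.09, adjusted p = 0.705). LAMP2, a lysosomal membrane gene on chromosome X, had 201 and 219 RPM in MDA-MB-468/R, against 369 and 349 RPM in MDA-MB-468/WT (log2 fold change -0.77, adjusted p = 0.00298). The membrane scaffold gene FLOT1 had 209.8 RPM in each MDA-MB-468/R library, against 163 and 146 RPM in MDA-MB-468/WT (0.44, adjusted p = 0.0296), and the syndecan gene SDC1 had 273 and 281 RPM, against 220.3 and 213 RPM (0.355, adjusted p = 0.0441). Without WT replicate 1 or WT replicate 2 none of these 4 genes passed, with adjusted p of 0.0935 and 0.0845 for SDCBP. FLOT1 also did not pass without R replicate 1 (0.0715) or R replicate 2 (0.0720).

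**Figure D4:**
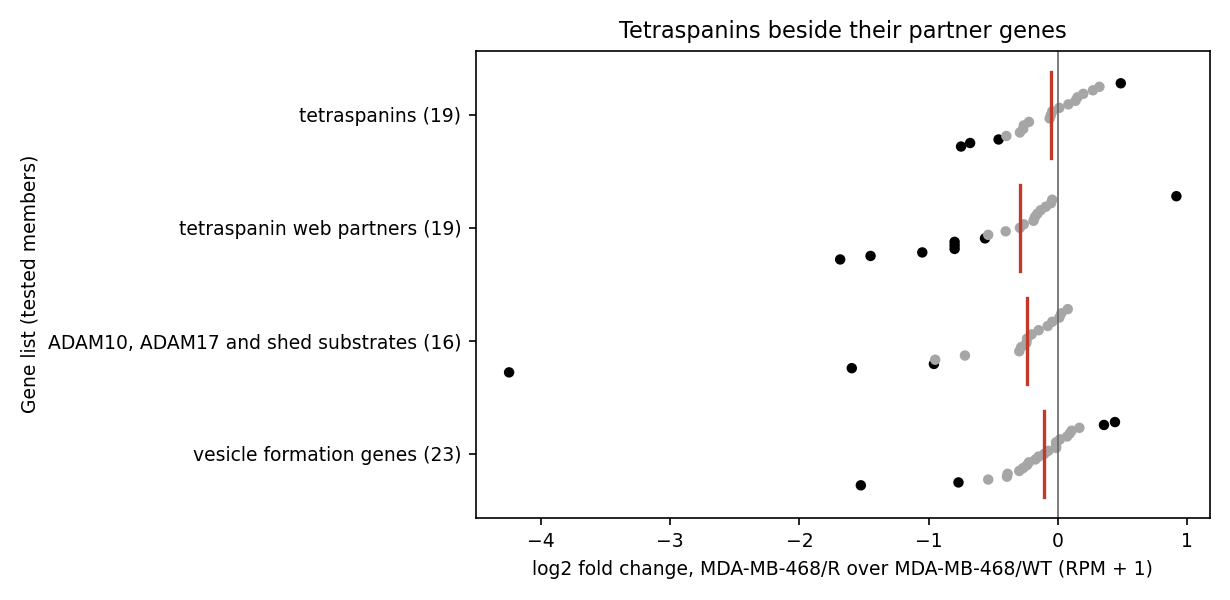
Log2 fold change of MDA-MB-468/R over MDA-MB-468/WT (x) of the tested genes of 4 lists (y, with their number in brackets). Each point is a gene, black where the adjusted p was at most 0.05, and red bars are the medians, which run from -0.295 for the web partners to -0.055 for the tetraspanins.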

How the data were processed

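Total RNA of the resistant and the parental line (2 libraries each) was sequenced with the Ion AmpliSeq Transcriptome kit. For alignment the methods of the study give the Torrent Mapping Alignment Program, and for the comparison DEGSeq. Bowtie2, bedtools and edgeR stand in the submitters' processing notes, with no version. The genome build is not given in the sources used here. The authors deposited log2 values rounded to 2 decimals. With the log undone and 1 taken off, each library summed to between 999854 and 1000060, so the values are log2 of RPM plus 1. All values of up to 20 reads were whole reads within 0.1 at the depths found from the lowest values.

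The log2 values of 12118 genes with at least 10 reads in at least 2 libraries were compared by limma 3.58.1 in R 4.3.3 (mean trend, no further scaling), with Benjamini-Hochberg adjustment over all tested genes. There were 2 residual and 5.40 prior degrees of freedom. DEGs needed an adjusted p up to 0.05 together with a change of 2.5-fold or more. DEGSeq takes no spread between replicates and was not used. Fold changes are on the log2(RPM + 1) scale, which understates changes of low genes. The procedure was tested on simulated data with the same spread in every library, so the unequal spread of these groups was not covered. The members and lists were chosen with earlier results of these data known, so lists are described by counts and medians without a test. All members were named, with up to 6 genes per partner list by size of change and a few fixed partners. CD44, EPCAM, CLDN7, EGFR, ITGA6, ADAM17, CDK4 and the neighbouring genes were named after their values were seen. RefSeq positions matched 11839 of the tested genes. Alternatives were the scaling, the pseudocount, the filter, limma-voom, no mean trend, the replicate block and each library left out. The genes around TSPAN2 are not reported here.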

Additional observations from a re-analysis of the deposited data

How the results depend on the processing

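The counts of tetraspanins that passed, 1 higher and 3 lower, were 0 and 1 with no filter on low values, where 20809 targets were tested. The higher count was 0 without a mean trend and 0 with the replicate block. The lower count was 2 in both of these fits, with median-of-ratios scaling and with at least 50 reads in 2 libraries. With 1 library left out the counts ranged from 0 to 2 higher and from 0 to 4 lower, both being 0 without WT replicate 1 or WT replicate 2. In those fits the lone MDA-MB-468/WT library is assumed to vary like the MDA-MB-468/R pair, and over all tested genes 11 and 9 were higher and 52 and 48 lower. No tetraspanin was a DEG under any of the 12 alternatives or with an unadjusted p. The unadjusted p could not change this, because no member reached the log2 fold change of 1.32 that a DEG needs. The replicate numbers did not pair the libraries (correlation of same-numbered deviations 0.00868). With the replicate block as a term 497 genes were higher and 1114 lower, and TSPAN13 (adjusted p = 0.056) and TSPAN6 (0.0821) lost their calls while TSPAN1 and TSPAN2 kept theirs. Among the partner and vesicle genes named, CD44 (0.0612), FLOT1 (0.0624) and SDC1 (0.104) also lost theirs.

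TSPAN1 passed in 10 of 12 alternatives, TSPAN2 in 8, TSPAN13 in 7 and TSPAN6 in 4, and their direction was the same in all. Changes of sign occurred only among members that did not pass, with 1 library left out: their ranges of log2 fold change were -0.08 to 0.62 for TSPAN10, -0.115 to 0.025 for TSPAN15, -0.03 to 0.05 for TSPAN17, -0.075 to 0.465 for TSPAN31, -0.205 to 0.095 for TSPAN4 and -0.06 to 0.22 for TSPAN9. The causes were not tested. With 2 libraries a group, the intervals of the members spanned from -1.06 to 0.894, and TSPAN2, TSPAN5, TSPAN10 and TSPAN33 rest on at most 124 reads a library.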

Other observations

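Ratios of members within a library do not depend on the scaling between libraries and are given as values without a test, chosen after the levels were seen. CD63 over CD9 was 0.823 and 1.01 in MDA-MB-468/R, against 1.17 in each MDA-MB-468/WT library. CD81 over CD9 was 0.377 and 0.323 in MDA-MB-468/R, against 0.462 in each MDA-MB-468/WT library, while CD151 over CD9 was 1.04 in each MDA-MB-468/R library, against 1.01 and 1.06. TSPAN1 over TSPAN13 was 0.124 and 0.148 in MDA-MB-468/R, against 0.323 and 0.320 in MDA-MB-468/WT. Syntenin-1 (SDCBP) over CD63 was 0.0455 and 0.0443 in MDA-MB-468/R, against 0.118 and 0.113 in MDA-MB-468/WT, and ITGB4 over CD151 was 0.124 and 0.103, against 0.437 and 0.382. In each of these ratios but CD151 over CD9 the groups did not overlap. Of all tested genes taken singly, 58.3% did not overlap either, and the choice of pairs favours such ratios. A ratio shows unequal change of a pair of genes and not which of them changed.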
